A study of Mus musculus with 9 samples.

Results

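The hemoglobin and erythroid genes described here were *Hba-a1*, *Hba-a2*, *Hbb-bs*, *Hbb-bt*, *Alas2*, *Slc4a1*, and *Ahsp*, measured by RNA-Seq in CD45+CD11b+ cells sorted from *mdx* quadriceps. These 7 genes, of 50559 listed in the count files, were found by their symbols. They were chosen by their levels and their changes between the treatment groups in these same 9 libraries, so those levels and changes are given as a description, with no test. Of the 7 genes, 6 passed the filter on low counts that left 16618 genes for testing, and *Ahsp* did not.

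The mice were *mdx*, a model of Duchenne muscular dystrophy that lacks dystrophin, and were 4.5 weeks old at collection. They drank vehicle, the mineralocorticoid receptor antagonist spironolactone, or the glucocorticoid prednisolone for 7 days. Each group had 3 libraries, and each library was a pool of the paired quadriceps of 3 mice of a group that held both sexes, so *mdx* is shared by all groups and no healthy muscle was compared. Sorting used CD45 and CD11b alone, without a stain for dead cells. The pools were separate, so the spread and the *P* values below measure differences between pools of mice.

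Hemoglobin carries oxygen in red cells as a tetramer of alpha and beta chains, each holding a heme. Red cell precursors make it in bulk in bone marrow and spleen, under transcription factors that include GATA1 and KLF1, and the reticulocytes they release still hold globin mRNA after losing the nucleus. Mature red cells carry neither CD45 nor CD11b on their surface, and macrophages take up aged or damaged red cells and break down their hemoglobin.

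Libraries held between 31469815 and 32943512 counts on genes. Levels are given as CPM, the count of a gene scaled to library size, and 1 CPM corresponded to 31.6 to 33.7 counts. *Ptprc*, which encodes CD45, had a mean level of 574 to 615 CPM in the 3 groups, and *Itgam*, which encodes CD11b, was also abundant, with means of 1240 CPM with vehicle, 1040 CPM with spironolactone, and 1410 CPM with prednisolone. Vehicle replicate 3 stood apart by its neutrophil granule genes. The summed level of 10 neutrophil genes was 4058 CPM there against 312 and 370 CPM in the other vehicle libraries, and spironolactone replicate 3 had 3041 CPM against 922 and 886 CPM. The prednisolone libraries, at 310 to 435 CPM, lay below all spironolactone libraries and overlapped vehicle. The median log2 fold change of these 10 genes was -4.28 for prednisolone relative to vehicle (-1.28 without vehicle replicate 3) and 4.25 for spironolactone relative to prednisolone (3.45 without spironolactone replicate 3). For spironolactone relative to vehicle it was 0.02, and 2.87 without vehicle replicate 3 and -0.69 without spironolactone replicate 3. In these 3 comparisons edgeR called 0 of the 10, with 5, 6, and 0 at an unadjusted *P* under 0.05, and DESeq2 called 2, 3, and 0. Of all genes tested, 14.2%, 22.5%, and 9.29% had such a *P*. DESeq2 called 4.64%, 10%, and 1.67% of the 14742, 15892, and 15892 genes that it tested, and its shares below are over those genes. The part of these cells in the globin levels was not tested.

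The alpha genes *Hba-a1* and *Hba-a2* lie on chromosome 11 of GRCm39 (chr11:32233186-32234504 and chr11:32246168-32247320, both on the plus strand), and the adult beta genes *Hbb-bs* and *Hbb-bt* lie on chromosome 7 (chr7:103475730-103482989 and chr7:103461727-103465047, both on the minus strand). Each gene has 3 exons, and the genes of a pair are near-copies. The coding sequences of the alpha pair, 426 bases long, differed at 1 base, written C381T for *Hba-a1* to *Hba-a2*. Those of the beta pair, 441 bases long, also differed at 1 base, C417T for *Hbb-bs* to *Hbb-bt*. Positions are counted from the A of the start codon, and neither change alters the encoded protein. The 60 coding bases around each difference are shown because they carry the only coding letters that tell the copies apart, with that base in capitals. The alpha windows are chr11:32234313-32234372 and chr11:32247130-32247189, and the beta windows are chr7:103475875-103475934 and chr7:103461866-103461925, all exonic and written along the gene's own strand.
Hba-a1: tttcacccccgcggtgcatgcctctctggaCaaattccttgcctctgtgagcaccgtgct
Hba-a2: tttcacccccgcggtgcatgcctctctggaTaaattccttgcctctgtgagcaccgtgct
Hbb-bs: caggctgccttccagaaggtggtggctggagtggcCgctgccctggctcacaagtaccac
Hbb-bt: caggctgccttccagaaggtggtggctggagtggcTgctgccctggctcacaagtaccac

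This near-identity bears on every globin count. Of all 100-base windows of its annotated transcript, *Hba-a1* shared 73.6% with *Hba-a2*, and *Hba-a2* shared 81.8% with *Hba-a1*. *Hbb-bs* shared 58.9% of its windows with *Hbb-bt*, which shared 54.7%. Reads from such stretches fit both copies, so the split of counts within a pair is uncertain, whereas *Alas2*, *Slc4a1*, and *Ahsp* shared no window with another member. Reads that were aligned to more than 1 place and given to no gene made up 6.81% to 8.60% of the reads of vehicle libraries, 9.42% to 10.4% of spironolactone libraries, and 7.17% to 9.43% of prednisolone libraries. Their part in the globin levels was not tested.

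*Hba-a1* encodes an alpha chain and was the most abundant of the 7 genes. Its level was 60.5, 41.4, and 75.0 CPM in vehicle libraries, 110, 110, and 169 CPM after spironolactone, and 35.6, 42.9, and 20.9 CPM after prednisolone. Every spironolactone library lay above every vehicle library, and the prednisolone range overlapped the vehicle range by 1 library, prednisolone replicate 2. The mean level was 59.0 ± 16.9 CPM (SD, *n* = 3) with vehicle, 130 ± 33.9 CPM with spironolactone, and 33.1 ± 11.2 CPM with prednisolone. The log2 fold change relative to vehicle controls was 1.14 ± 0.33 (SE) for spironolactone and -0.83 ± 0.33 for prednisolone.

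*Hba-a2*, the other alpha gene, was lower in level and had the same order of libraries. Its level was 12.8, 9.30, and 16.5 CPM with vehicle, 29.9, 27.3, and 41.6 CPM with spironolactone, and 8.60, 9.44, and 5.55 CPM with prednisolone. The spironolactone libraries were all above the vehicle libraries, and prednisolone overlapped vehicle only where 9.44 CPM in prednisolone replicate 2 exceeded 9.30 CPM in vehicle replicate 2. Log2 fold changes were 1.36 ± 0.24 for spironolactone and -0.71 ± 0.25 for prednisolone relative to vehicle. *Hba-a2* varied least between pools of the 6 genes that passed the filter, with a biological coefficient of variation of 0.209 against 0.170 for all genes tested.

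*Hbb-bs*, an adult beta-globin gene, had 18.9, 16.9, and 37.9 CPM with vehicle, 37.6, 48.7, and 82.0 CPM with spironolactone, and 16.7, 24.6, and 9.59 CPM with prednisolone. Spironolactone and vehicle overlapped at a single point, 37.6 CPM in spironolactone replicate 1 against 37.9 CPM in vehicle replicate 3. The prednisolone range overlapped the vehicle range by 1 library, prednisolone replicate 2, which lay above vehicle replicates 1 and 2. Log2 fold changes were 1.19 ± 0.49 and -0.54 ± 0.50 relative to vehicle. The first of these was 0.81 without spironolactone replicate 3. The second was -0.08 without vehicle replicate 3, the library with the high neutrophil genes, and -0.90 without prednisolone replicate 2.

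*Hbb-bt*, the other adult beta-globin gene, had 1.06, 1.47, and 2.43 CPM with vehicle, 3.23, 3.19, and 7.35 CPM with spironolactone, and 1.76, 1.07, and 0.71 CPM with prednisolone. All spironolactone libraries were above all vehicle libraries, and prednisolone and vehicle overlapped. The log2 fold change was 1.47 ± 0.42 for spironolactone and 0.96 without spironolactone replicate 3. For prednisolone it was -0.48 ± 0.44, -0.10 without vehicle replicate 3, and -0.89 without prednisolone replicate 1.

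*Alas2* encodes the erythroid form of 5-aminolevulinate synthase, which starts heme synthesis in red cell precursors, and lies at chrX:149330371-149353634 on the plus strand. Its level was 2.46, 1.22, and 2.71 CPM with vehicle, 5.25, 3.79, and 5.22 CPM with spironolactone, and 1.31, 1.80, and 0.36 CPM with prednisolone. Spironolactone libraries did not overlap either other group, and only prednisolone replicate 3 fell below 1 CPM. Log2 fold changes were 1.16 ± 0.44 and -0.88 ± 0.46 relative to vehicle, and the second was -0.45 without prednisolone replicate 3 and -1.36 without prednisolone replicate 2. *Alas2* overlaps *Apex2* and *Mir3620* on the opposite strand, and the strand setting of the counting is not given in the sources used here.

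*Slc4a1* encodes band 3, the anion exchanger of the red cell membrane, and lies at chr11:102239650-102257029 on the minus strand. It had 0, 1, and 13 counts in vehicle libraries, 22, 0, and 17 counts in spironolactone libraries, and 0 counts in each prednisolone library. It was thus detected with more than 1 count in 3 libraries, vehicle replicate 3 and spironolactone replicates 1 and 3, and its coefficient of variation of 1.05 was above that of 99.9% of genes tested. Against a floor of 3 counts over the prednisolone group, the pooled level was at least 13.6-fold higher with spironolactone and at least 4.78-fold higher with vehicle. These bounds cover counting error only and not the spread between pools. Vehicle replicate 1 and spironolactone replicate 2 had 0 counts, as the prednisolone libraries did. Vehicle replicate 3 held 13 of the 14 vehicle counts, and the 1 count left without it gives no such bound. The spironolactone bound rests on replicates 1 and 3, with 22 and 17 counts, and was not recomputed without either of them. *Ahsp* encodes the chaperone that binds free alpha chains and lies at chr7:127901969-127902930 on the plus strand. It had 0, 0, and 1 counts with vehicle, 8, 3, and 0 with spironolactone, and 1, 0, and 0 with prednisolone. At this depth 0 counts allow up to 0.0891 to 0.0950 CPM, so that most *Ahsp* values were at or under the limit of detection.

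**Figure D1:**
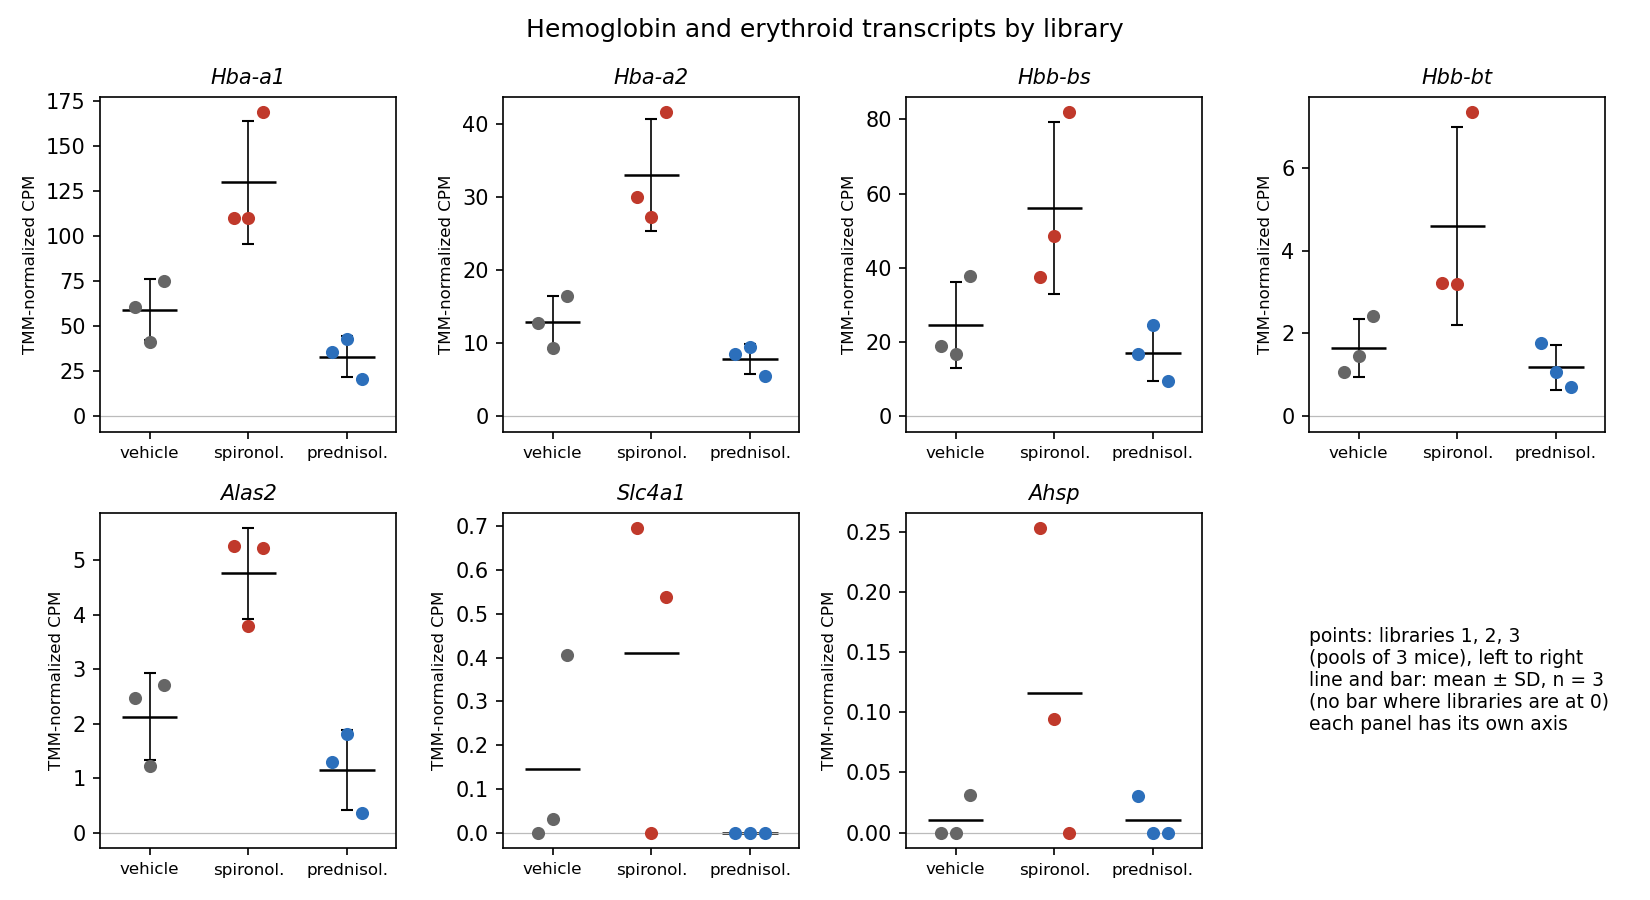
TMM-normalized CPM (y axis, linear, own scale in each panel) of the 7 hemoglobin and erythroid genes in each library, by treatment group (x axis). Points are libraries, each a pool of 3 mice, and lines and bars are mean ± SD (*n* = 3, no bar for *Slc4a1* and *Ahsp*). The spironolactone points of *Hba-a1* (110 to 169 CPM) sit above the vehicle points (41.4 to 75.0 CPM), whereas the prednisolone points overlap vehicle for every gene.

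Direct comparison of the drugs gave the widest separation. The log2 fold change of spironolactone relative to prednisolone was 1.97 ± 0.34 for *Hba-a1*, 2.07 ± 0.25 for *Hba-a2*, 1.73 ± 0.50 for *Hbb-bs*, 1.96 ± 0.44 for *Hbb-bt*, and 2.04 ± 0.46 for *Alas2*. In ratios of means these were 3.91-fold, 4.19-fold, 3.31-fold, 3.88-fold, and 4.12-fold. For each of these 5 genes the lowest spironolactone library exceeded the highest prednisolone library. This comparison and those against vehicle share libraries, so they are not separate observations.

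Over the 6 genes that passed the filter, the median log2 fold change was 1.27 for spironolactone and -0.77 for prednisolone relative to vehicle and 2.0 for spironolactone relative to prednisolone, where the medians over all genes tested were 9.04e-05, -0.0143, and 0.0259. The members' medians were the same with *Slc4a1* set at the bounds above, and were 1.19, -0.71, and 1.97 over the other 5 genes that passed the filter. All spironolactone libraries lay above all vehicle libraries for 4 of the 7 genes (*Hba-a1*, *Hba-a2*, *Hbb-bt*, and *Alas2*), where 6.99% of all genes tested did so. No gene of the 7 had all prednisolone libraries below all vehicle libraries, where 9.27% of all genes did. All spironolactone libraries lay above all prednisolone libraries for 5 of the 7, where 15.1% of all genes did. Because the genes were chosen on these contrasts, nothing is read from these counts. With each of the 9 libraries left out in turn, the medians ranged from 1.0 to 1.61, from -0.98 to -0.48, and from 1.71 to 2.21. The first was 1.02 without spironolactone replicate 3. The extremes came without vehicle replicates 2 and 3 for spironolactone relative to vehicle and without prednisolone replicates 2 and 3 for the others, and no fitted fold change of the 6 genes changed sign. In bulk RNA, fewer cells of a type and less RNA per cell cannot be told apart.

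The level of all 4 globins together was 93.4, 69.0, and 132 CPM with vehicle, 181, 189, and 300 CPM with spironolactone, and 62.7, 77.9, and 36.7 CPM with prednisolone. Spironolactone replicate 3 was highest and prednisolone replicate 3 lowest of the 9. Per kilobase of transcript, *Hba-a1* ranked between 284 and 2189 among 25349 genes over the libraries, *Hbb-bs* between 497 and 3914, and *Alas2* between 9367 and 15136. On this scale of level per length, *Hba-a1* (79.9 CPM per kb with vehicle) was above *Hbb-bs* (37.0), *Hba-a2* (19.9), *Hbb-bt* (2.35), and *Alas2* (1.05), and the mean order was the same in all 3 groups. The library ranges of *Hba-a2* and *Hbb-bs* in CPM per kb lay from 8.58 to 64.4 and from 14.4 to 124, so these neighbors overlapped across libraries, but *Hbb-bs* was above *Hba-a2* within each of the 9 libraries. Reads given to no gene for aligning to several places are missing from these levels. The part of each transcript shared with its copy differed between the genes, as given above. Neither the ranks nor the order were corrected for this.

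The balance between chains varied less than the levels. Alpha counts made up 78.6%, 73.4%, and 69.4% of globin counts in vehicle libraries, 77.4%, 72.6%, and 70.2% after spironolactone, and 70.5%, 67.1%, and 71.9% after prednisolone. The group means were 73.8 ± 4.61%, 73.4 ± 3.67%, and 69.8 ± 2.47% (SD, *n* = 3), and the groups overlapped. The alpha genes shared more of their windows (73.6% and 81.8%) than the beta genes did (58.9% and 54.7%). These alpha shares were not corrected for reads given to no gene. The exact 95% Clopper-Pearson interval of vehicle replicate 1 (77.1% to 80.0%) did not reach that of vehicle replicate 3 (68.0% to 70.8%), so pools of 1 group differed beyond counting error, which is all that these intervals cover. Within the beta pair, *Hbb-bs* took 90.5% to 95.8% of counts, with no separation of the groups.

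Within the alpha pair, *Hba-a1* took 82.5%, 81.7%, and 82.0% of counts with vehicle and 78.6%, 80.1%, and 80.2% with spironolactone, and these groups did not overlap. The prednisolone libraries, at 80.6%, 81.9%, and 79.0%, spanned the gap. The means were 82.1 ± 0.40%, 79.6 ± 0.90%, and 80.5 ± 1.45%. The share of reads given to no gene for aligning to several places differed between the same groups, as given above. Its part in the share was not tested.

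**Figure D2:**
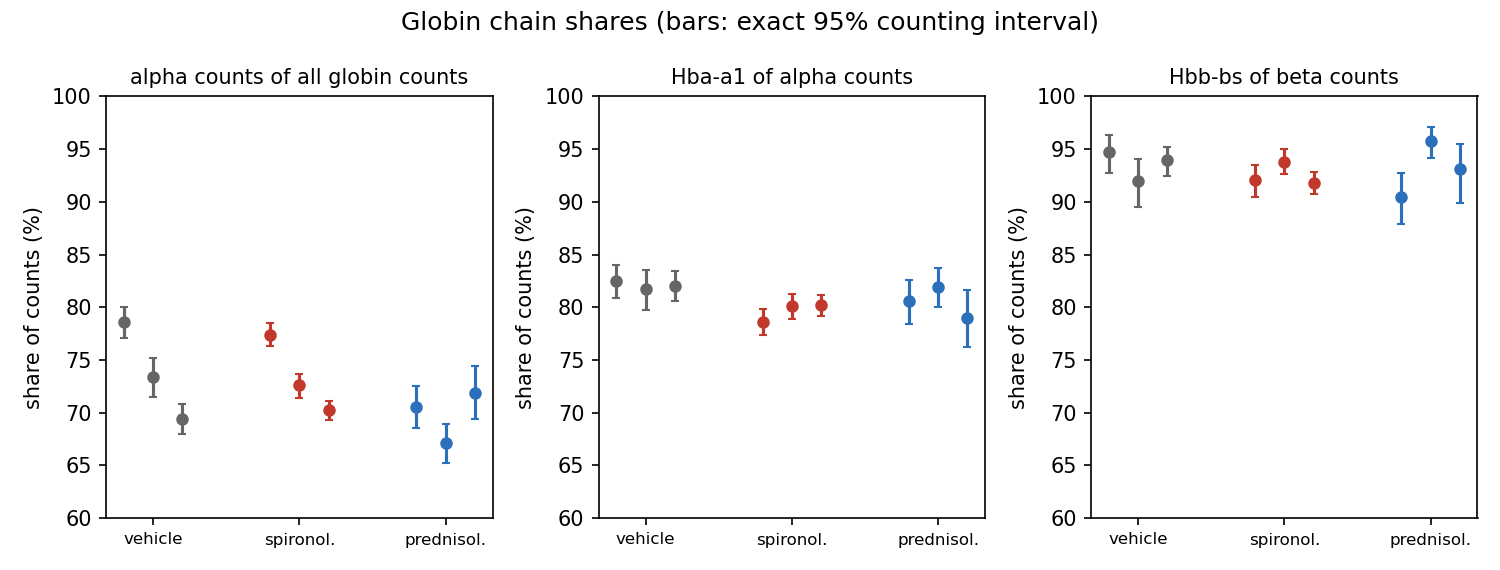
Share of globin counts (y axis, percent, from 60 to 100) in each library by treatment group (x axis), for alpha among alpha and beta counts (left), *Hba-a1* among alpha counts (middle), and *Hbb-bs* among beta counts (right). Points are libraries and bars are exact 95% intervals for counting error. Alpha shares spread from 67.1% to 78.6% without separating the groups, whereas the *Hba-a1* share is 81.7% to 82.5% with vehicle and 78.6% to 80.2% with spironolactone.

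*Hba-a1*, *Hba-a2*, *Hbb-bs*, *Hbb-bt*, and *Alas2* moved together from library to library. Over the 9 libraries the Pearson correlation of log2 CPM was 0.819 to 0.991 for the 10 pairs of these genes, lowest for *Hbb-bt* with *Alas2* and highest for the alpha pair. With group means removed it was 0.469 to 0.987. *Hba-a1* and *Alas2*, which lie on different chromosomes and share no 100-base window, had 0.958 over libraries and 0.892 with group means removed. The globin counts of a library were 34.5 to 57.4 for each *Alas2* count in 8 libraries and 103 in prednisolone replicate 3. The points share libraries and depth, and the values describe them only.

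The members also share sequence upstream of their transcription start that was not used to choose them. In the 250 bases before the annotated start of the canonical transcript, a GATA motif (GATA after A or T and before A or G, on either strand) was found in 7 of 7 genes, where 26.2% of 21770 annotated promoters of the same length held it. A CACCC-type motif (CCNCNCCC, either strand) was found in 5 of 7, where 48.8% of promoters held it, CCAAT (either strand) in both beta genes alone, where 36.5% held it, and TATAAA (either strand) in 1 of 7, *Alas2*, where 11.9% held it. No match overlapped another. Such a match is a description of letters, not of binding. The windows end at annotated starts, which do not line up within the alpha pair. Its shared GATA match began 22 bases before the start in *Hba-a1* and 90 in *Hba-a2*. Bases past the annotated start were not searched, so a motif not found here may lie outside the window. The windows of *Hba-a2* (chr11:32246146-32246395, plus strand), *Hbb-bs* (chr7:103477170-103477419, minus strand), and *Alas2* (chrX:149330121-149330370, plus strand) are shown, 1 for each role of alpha chain, beta chain, and heme synthesis, with the GATA, CACCC-type, and CCAAT matches in capitals.
Hba-a2: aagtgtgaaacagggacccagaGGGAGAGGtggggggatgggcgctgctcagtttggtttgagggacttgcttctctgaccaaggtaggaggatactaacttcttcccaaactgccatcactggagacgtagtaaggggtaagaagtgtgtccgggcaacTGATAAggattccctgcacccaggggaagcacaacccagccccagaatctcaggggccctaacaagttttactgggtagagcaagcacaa
Hbb-bs: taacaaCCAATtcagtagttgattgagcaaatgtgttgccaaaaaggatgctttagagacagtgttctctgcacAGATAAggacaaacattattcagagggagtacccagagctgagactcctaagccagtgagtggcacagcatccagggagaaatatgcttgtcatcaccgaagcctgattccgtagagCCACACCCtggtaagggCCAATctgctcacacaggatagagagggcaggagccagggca
Alas2: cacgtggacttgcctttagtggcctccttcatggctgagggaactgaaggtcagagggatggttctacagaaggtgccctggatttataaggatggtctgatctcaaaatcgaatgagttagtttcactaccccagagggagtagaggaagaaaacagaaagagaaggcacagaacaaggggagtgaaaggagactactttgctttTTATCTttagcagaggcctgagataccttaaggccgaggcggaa

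The GATA motif began 90 bases before the start in *Hba-a2*, 176 in *Hbb-bs*, and 44 in *Alas2*, where it read TTATCT, the motif on the opposite strand. *Ahsp* had 3 such matches. The same 182 bases lay in the windows of both alpha genes without a mismatch, so the alpha pair counts as a single upstream sequence here.

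Calls among the other erythroid genes are given beside the share of all genes called. Of 62 genes in 5 lists (other globins, erythroid transcription factors and receptor, red cell membrane, heme synthesis and iron import, and red cell cytosol), 59 were in the files and 40 were tested. With spironolactone relative to vehicle, edgeR's quasi-likelihood test with Benjamini-Hochberg adjustment called 0 of the 40, DESeq2 called 0, and 4 had an unadjusted *P* under 0.05, where edgeR called 0.0181% of all genes tested, DESeq2 called 1.67%, and 9.29% had an unadjusted *P* under 0.05. With prednisolone, 2 of 40 fell and 0 rose, a share of 5.0% against 1.76% of all genes by edgeR. DESeq2 called 3 of the 40, and 4.64% of the genes it tested. An unadjusted *P* under 0.05 was reached by 7 of the 40 and by 14.2% of all genes. With spironolactone relative to prednisolone, 2 of 40 were higher (4 called by DESeq2), a share of 5.0% against 5.17% of all genes by edgeR, where DESeq2 called 10% and 22.5% had an unadjusted *P* under 0.05, as did 11 of the 40. The median log2 fold changes of the 40 were 0.05, -0.02, and 0.18, against 1.27, -0.77, and 2.0 for the members.

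Embryonic and other globins were near absent. Of 7 such genes in the files, 4 (*Hba-x*, *Hbb-bh2*, *Hbb-bh3*, and *Hbq1a*) had 0 counts in every library and the other 3 had at most 1 count in a library. *Hbb-bh3* overlaps *Hbb-bs* on the same strand.

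Of the erythroid transcription factors and receptor, 8 of 9 genes were tested. *Gata1*, the master factor of red cell and platelet precursors, which eosinophils and mast cells also express, had 2.16, 0.998, and 0.748 CPM with vehicle, 0.949, 1.36, and 1.61 CPM with spironolactone, and 0.456, 0.0306, and 0.208 CPM with prednisolone. The prednisolone libraries were below all others, and vehicle and spironolactone overlapped. Relative to prednisolone it was higher with spironolactone (log2 fold change 2.48 ± 0.65, edgeR adjusted *P* = 0.0429), a call kept in 6 of 6 other settings. It was lost in 5 of 9 fits with a library left out (vehicle 2, spironolactone 2 or 3, prednisolone 2 or 3), at an edgeR adjusted *P* of 0.0503 to 0.133. Relative to vehicle, the prednisolone value was -2.47 ± 0.65 and missed the threshold (edgeR adjusted *P* = 0.0752). That value was called in 2 of 6 other settings, at adjusted *P* values of 0.000294 to 0.122 over edgeR and DESeq2, and in 0 of 9 fits with a library left out.

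*Lmo2*, a partner of GATA1 in erythroid complexes that is also expressed in myeloid and endothelial cells, had 72.4, 80.7, and 72.0 CPM with vehicle, 74.9, 80.8, and 77.5 CPM with spironolactone, and 58.1, 56.0, and 61.7 CPM with prednisolone, which overlapped neither other group. It fell with prednisolone relative to vehicle by 0.36 ± 0.08 on the log2 scale (edgeR adjusted *P* = 0.0494), called in 2 of 6 other settings and lost in 8 of 9 fits with a library left out (each but vehicle 1), at 0.0527 to 0.246. It was higher with spironolactone than with prednisolone (0.41 ± 0.08, edgeR adjusted *P* = 0.0158), a call lost without spironolactone 2 or 3 or prednisolone 1 or 2, at 0.0566 to 0.0884. Of the more abundant genes of this list, *Nfe2*, *Bcl11a*, and *Zfpm1* were not called by edgeR at an adjusted *P* of 0.05 in any comparison, with log2 fold changes for spironolactone relative to vehicle of -0.28 ± 0.22, 0.63 ± 0.21, and 0.20 ± 0.17. In 1 of 6 other settings each, *Bcl11a* was called for spironolactone relative to vehicle and *Nfe2* for prednisolone relative to vehicle. *Klf1*, the erythroid Krüppel-like factor, was not tested, with 5, 14, and 8 counts over the vehicle, spironolactone, and prednisolone groups.

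Red cell membrane genes gave 0 calls by edgeR or DESeq2 in any comparison among 8 tested of 15, with 0 genes at an unadjusted *P* under 0.05 for either drug relative to vehicle and 2 between the drugs. Several genes particular to red cells were close to 0. *Rhag* had 0, 13, and 0 counts over the 3 groups, *Kel* had 0 in all, and *Epb42* had 13 counts in vehicle replicate 3 alone, as *Slc4a1* had there. *Epb41*, *Gypc*, *Ank1*, and *Tmod1*, the most abundant of those tested, are also expressed outside red cells, and their log2 fold changes for spironolactone relative to vehicle were 0.04 ± 0.12, 0.22 ± 0.12, 0.29 ± 0.24, and -0.55 ± 0.37.

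All 13 genes of heme synthesis and iron import were tested and 0 were called in any comparison by edgeR, and 1 by DESeq2, between the drugs. An unadjusted *P* under 0.05 was reached by 0 genes for spironolactone, 3 for prednisolone, and 5 between the drugs. *Alas1*, the form of 5-aminolevulinate synthase used by cells in general, had 127, 155, and 177 CPM with vehicle, 139, 153, and 134 CPM with spironolactone, and 169, 188, and 196 CPM with prednisolone. Vehicle and spironolactone overlapped, and the prednisolone mean, the lowest for *Alas2*, was the highest for *Alas1*. Its log2 fold change for spironolactone relative to prednisolone was -0.38 ± 0.11 (edgeR adjusted *P* = 0.0736), past the threshold in 5 of 6 other settings. Per kilobase, *Alas1* (44.8 CPM with vehicle) was above *Alas2* (1.05 CPM). *Steap3*, *Slc25a37*, and *Fech*, which serve iron reduction, mitochondrial iron import, and the last step of heme synthesis, had changes of 0.10 ± 0.10, -0.13 ± 0.11, and -0.04 ± 0.10 for spironolactone relative to vehicle.

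Among red cell cytosol genes, 11 of 15 were tested. *Tent5c*, which encodes a poly(A) polymerase also found in lymphoid and myeloid cells, fell with prednisolone, from 76.9, 53.4, and 50 CPM in vehicle libraries to 39.0, 30.3, and 39.0 CPM. The log2 fold change was -0.74 ± 0.16 (edgeR adjusted *P* = 0.0357), called in 4 of 6 other settings and lost in 6 of 9 fits with a library left out (each but vehicle 1, vehicle 3, and spironolactone 1), at 0.0539 to 0.159. The abundant *Cat*, *Bnip3l*, *Prdx2*, and *Mkrn1* are expressed in most cells and had changes of -0.05 ± 0.09, -0.08 ± 0.10, 0.09 ± 0.09, and 0.02 ± 0.09 for spironolactone relative to vehicle. *Car1*, carbonic anhydrase 1 of red cells, had 0 counts in every library, and *Hemgn* had 5, 20, and 9 counts over the groups.

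**Figure D3:**
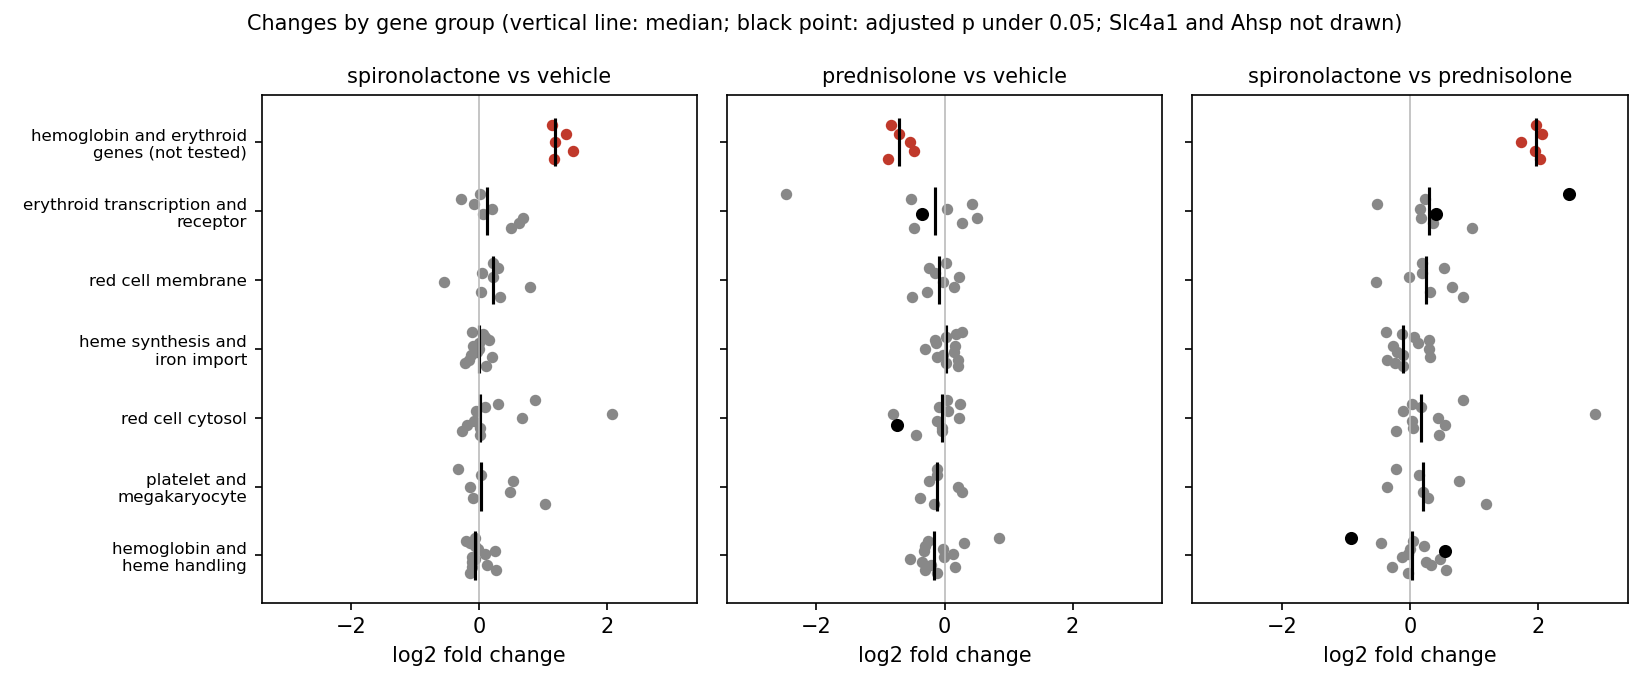
Log2 fold change (x axis) of each tested gene of the hemoglobin and erythroid group and of 6 other lists (y axis), for the 3 comparisons, without *Slc4a1* and *Ahsp*. Points are genes, vertical lines are medians, black points passed an adjusted *P* of 0.05 in edgeR, and the red members are shown without a test result. The members have medians of 1.19, -0.71, and 1.97, against 0.05, -0.02, and 0.18 over the 40 other erythroid genes.

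Platelets also travel in blood and lack a nucleus. Of 13 platelet and megakaryocyte genes, 7 were tested and edgeR and DESeq2 called 0 in each comparison, with 0 at an unadjusted *P* under 0.05. Their summed level was 223 to 292 CPM with vehicle, 245 to 259 CPM with spironolactone, and 205 to 261 CPM with prednisolone, so that the groups overlapped. Most of it was *Pf4*, platelet factor 4, which macrophages also express, at 231 ± 41.0, 235 ± 11.5, and 214 ± 25.8 CPM. *Ppbp*, *Gp1ba*, and *Treml1* had log2 fold changes of -0.34 ± 0.40, -0.15 ± 0.31, and 0.48 ± 0.44 for spironolactone relative to vehicle.

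Genes for the uptake and breakdown of hemoglobin and heme gave 0 calls by edgeR for either drug relative to vehicle among 14 tested, with 1 and 5 at an unadjusted *P* under 0.05 and 0 and 2 called by DESeq2. Of all genes, 9.29% and 14.2% had such a *P* with spironolactone and prednisolone, and DESeq2 called 1.67% and 4.64%. Between the drugs edgeR gave 2 calls and DESeq2 4, with 7 of 14 at an unadjusted *P* under 0.05, against 5.17%, 10%, and 22.5% of all genes. *Blvrb*, which encodes biliverdin reductase B and is abundant in red cells as well as in other tissues, had 81.3, 75.7, and 79.2 CPM with vehicle, 93.2, 95.9, and 89.6 CPM with spironolactone, and 61.8, 56.7, and 71.0 CPM with prednisolone. The 3 groups did not overlap, and it was higher with spironolactone than with prednisolone by 0.56 ± 0.09 on the log2 scale (edgeR adjusted *P* = 0.00532), a call kept in each of 6 other settings and 9 fits with a library left out. *Cd163*, the macrophage receptor for hemoglobin bound to haptoglobin, was lower with spironolactone than with prednisolone (-0.92 ± 0.23, edgeR adjusted *P* = 0.0448), with 11.5, 17.6, and 12.3 CPM against 22.4, 29.9, and 26.2 CPM. That call held in 5 of 6 other settings and was lost in 6 of 9 fits with a library left out (each but vehicle 1, vehicle 3, and spironolactone 2), at 0.0637 to 0.17. Vehicle libraries had 19.8, 13.2, and 10.3 CPM of *Cd163*, which overlapped spironolactone (-0.07 ± 0.23 relative to vehicle) and lay below prednisolone. The prednisolone change relative to vehicle was 0.86 ± 0.23 (edgeR adjusted *P* = 0.0992). It was called in 2 of 6 other settings and in 1 of 9 fits with a library left out. *Hmox1*, heme oxygenase 1, was not called at an adjusted *P* of 0.05 in edgeR, at 352 ± 11.7 CPM with vehicle, 335 ± 31.1 CPM with spironolactone, and 286 ± 27.3 CPM with prednisolone. The ferritin chains *Ftl1* and *Fth1* and the hemopexin receptor *Lrp1* were not called in that fit either, with log2 fold changes between the drugs of 0.34 ± 0.10, 0.25 ± 0.09, and -0.45 ± 0.17. Between the drugs *Ftl1* and *Fth1* were each called in 1 of 6 other settings and *Lrp1* in 3 of 6, and *Fth1* was also called in 1 of 6 for prednisolone relative to vehicle.

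Transcripts of cells that the gate should remove were present as well. The summed level of 12 skeletal muscle genes was 282 to 430 CPM with vehicle, 537 to 914 CPM with spironolactone, and 411 to 625 CPM with prednisolone, and that of 10 endothelial genes was 73.1 to 119, 155 to 246, and 101 to 134 CPM. Both sums were above vehicle in every spironolactone library and, unlike the globins, had a prednisolone mean that was not below the vehicle mean. No gene of either list was absent from all libraries. In edgeR 0 genes of either list were called for spironolactone relative to vehicle, with 10 of 11 tested muscle genes and 9 of 10 endothelial genes at an unadjusted *P* under 0.05, and DESeq2 called 7 of each list. Over all genes, 9.29% had such a *P* and DESeq2 called 1.67% (266 genes). The median log2 fold changes of the muscle and endothelial lists were 0.95 and 1.15 for spironolactone relative to vehicle, beside 1.19 for the 5 tested members other than *Slc4a1*. They were 0.29 and 0.10 for prednisolone relative to vehicle, and 0.69 and 1.03 between the drugs. Without spironolactone replicate 3 the muscle median was 0.68 for spironolactone relative to vehicle and 0.42 between the drugs. Without vehicle replicate 3 the endothelial median for prednisolone relative to vehicle was 0.28. Between the drugs, *Mb*, myoglobin, was higher with spironolactone (1.24 ± 0.32, edgeR adjusted *P* = 0.0429), as were the endothelial *Pecam1*, *Cdh5*, *Egfl7*, *Tie1*, and *Esam* (log2 fold changes 1.09, 1.13, 1.42, 0.88, and 1.04). Only *Pecam1* of these was called in each fit with a library left out, and *Mb* was called in 2 of 9. *Itgam* was lower with spironolactone than with prednisolone (-0.43 ± 0.11, edgeR adjusted *P* = 0.0353), in 4 of 9 fits with a library left out. The part of these cells in the globin levels was not tested.

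**Figure D4:**
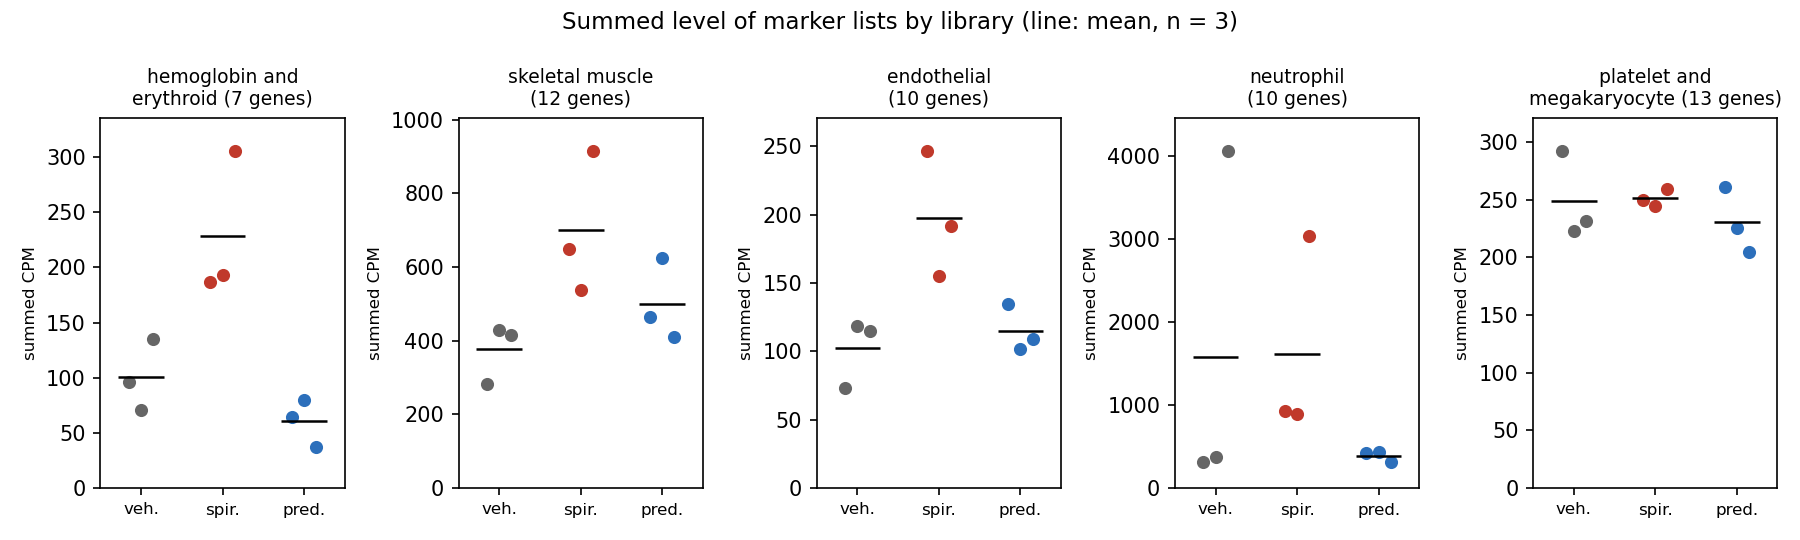
Summed TMM-normalized CPM (y axis, from 0, own scale in each panel) of the hemoglobin and erythroid genes and of 4 marker lists in each library, by treatment group (x axis). Points are libraries and lines are group means (*n* = 3). Muscle sums are 537 to 914 CPM and endothelial sums 155 to 246 CPM with spironolactone, above all vehicle libraries, whereas platelet sums overlap and neutrophil sums are highest in vehicle replicate 3 (4058 CPM).

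The genes outside the group whose levels followed the members most closely were named by the Pearson correlation, over the 9 libraries, of their log2 CPM with the mean standardized log2 CPM of the members. The highest was *Tceal9* (0.982), then *Mgll* (0.977), *Gm36753* (0.974), *Rxrg* (0.972), *Snn* (0.961), *Yes1* (0.959), *Unc5b* (0.956), *Kcna1* (0.953), *Trib2* (0.953), and *Gm15133* (0.952). *Mgll*, monoglyceride lipase, had 11.5 ± 1.75, 19.0 ± 0.95, and 9.30 ± 2.22 CPM with vehicle, spironolactone, and prednisolone. None of the 10 belongs to the erythroid lists, and the highest of so many correlations describe these libraries only.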

How the data were processed

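RNA-Seq counts of 9 libraries were used. The authors made the deposited counts, whole numbers per gene without normalization, by alignment to mm39 with HISAT2 2.2.1 and counting with HTSeq 0.11.3 (versions from the submitters' processing notes). The annotation release and strand setting are not given in the sources used here. Lines naming no gene held 17.2% to 21.8% of reads and were left out. The deposited tables of fold changes and adjusted *P* values, the authors' DESeq2 1.32.0 comparisons, were not used.

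Levels are CPM normalized by the trimmed mean of M values (TMM), and log2 CPM used a prior count of 2. Genes passing filterByExpr (minimum count 10, minimum total 15) were fitted with edgeR 4.0.16 (glmQLFit, robust, all 9 libraries, R 4.3.3) and tested two-sided with Benjamini-Hochberg adjustment over 16618 genes at 0.05. The SE is the fold change divided by the root of F. The edgeR steps were tested on simulated counts for prednisolone relative to vehicle only. DESeq2 1.42.0, other normalizations, no filter, 2-group fits, a replicate block, and leaving out each library were alternatives. Positions and transcripts are from GENCODE on GRCm39, the build of mm39. No amino acid sequence was used.

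The members and all gene lists were chosen with earlier results of these data known. Named genes are the members, listed genes past the threshold, the 4 most abundant tested genes of each erythroid, platelet, and heme handling list, and the 10 genes most correlated with the members. *Ptprc*, *Klf1*, *Rhag*, *Kel*, *Epb42*, *Car1*, *Hemgn*, and the other globins were named after their values were seen. Some listed genes are not reported here by name.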

Additional observations from a re-analysis of the deposited data

How the results depend on the processing

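The fold changes of *Hba-a1*, *Hba-a2*, *Hbb-bs*, *Hbb-bt*, and *Alas2* kept their direction in all 15 alternative fits of each comparison. The *Slc4a1* value for spironolactone relative to vehicle moved from 1.48 to 4.42 without vehicle replicate 3. Counts of calls depended on the setting, and the cause was not tested. For spironolactone relative to vehicle, 3 genes were called in all, against 266 by DESeq2, 528 without a filter, and 8 with a replicate block, and from 0 to 34 with a library left out. Of other erythroid genes 0 were called, 1 without a filter, and 0 with any library left out. For prednisolone relative to vehicle, 293 genes were called, against 684 by DESeq2 and 1019 without a filter, and from 69 to 826 with a library left out. Of other erythroid genes 2 were called, against 0 with library totals, 4 without a filter, 0 in the fit of 2 groups, and 1 with a replicate block, and from 0 to 2 with a library left out. For spironolactone relative to prednisolone, 859 genes were called, against 1595 by DESeq2, 1940 without a filter, and 1598 in the fit of 2 groups, and from 232 to 1898 with a library left out. Of other erythroid genes 2 were called, against 4 by DESeq2, 6 without a filter, 5 in the fit of 2 groups, and 4 with a replicate block, and from 0 to 4 with a library left out. Whether the replicate numbers pair the libraries was not settled. Deviations of same-numbered libraries correlated from -0.04 to 0.15, with 2 of 9 pairs over 0.1 and 4 of 9 libraries closest to their own number. Those 2 pairs joined vehicle and spironolactone, in replicates 1 and 3 (0.117 and 0.151). With 3 libraries per group, such values cannot decide whether same-numbered libraries shared a batch. *Ahsp*, *Slc4a1*, and *Klf1* are limited by depth.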
